A study of Mus musculus with 4 samples.

Results

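Macrophages of the mouse inguinal white adipose tissue (iWAT) were the 1229 nuclei, of 32552 in all (3.78%), that the deposited single nucleus annotation assigns to the macrophage cluster. They came from 21 mice, with 24 to 168 macrophage nuclei in each, so every mouse passed the minimum of 10 nuclei. The study measured open chromatin by single nucleus ATAC-seq (snATAC-seq), in which a transposase cuts accessible DNA, in nuclei of whole iWAT. All mice were male C57BL/6J, 8 weeks old, with no transgene or deletion. The day0RT group was kept at 22 °C with no treatment. The day1C, day3C and day7C groups were kept at 6.5 °C for 1, 3 or 7 days. The day1CL, day3CL and day7CL groups were kept at room temperature and received CL-316,243 (CL), an agonist of the β3-adrenergic receptor, at 1 mg/kg for 1, 3 or 7 days. Each group had 3 mice. Both stimuli turn white fat beige, that is, they induce thermogenic adipocytes within it, and the comparisons ask how the accessible chromatin and the share of macrophages differed between groups. The macrophages are set against 4 lymphoid clusters (21781 nuclei) and 6 non-immune clusters (8865 nuclei), and the 677 dendritic cells are given beside them.

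Macrophages of fat tissue derive from embryonic precursors and from blood monocytes, and they depend on colony-stimulating factor 1, which signals through the receptor encoded by Csf1r. They clear dead adipocytes and released lipid, present antigen, and are known for changing their state with obesity, cold and lipolysis. The transcription factor PU.1, encoded by Spi1, opens much of their enhancer repertoire and also acts in B cells and dendritic cells.

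A count here was 1 nucleus with at least 1 read in 1 peak. The value of a gene was the sum over the peaks in its body and the 2000 bases upstream, scaled to a library total of 1000000 counts (CPM), where a library was the sum of all macrophage nuclei of 1 mouse. The macrophage libraries held 18954 to 216067 gene counts, and the median nucleus held 1128 counts (133 to 11240). CPM is not scaled to length, so levels are compared between cell types and mice but not between genes. A share of nuclei does not tell fewer macrophages from fewer recovered nuclei.

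Libraries of 3 mice stood apart from the rest. Lymphocytes made up 11.9% of nuclei in day1CL replicate 3, 14.1% in day3CL replicate 2 and 36.8% in day3C replicate 1, against 58.2 to 90.8% in the other 18 mice. The first of these also gave the most macrophage nuclei, 168. Several results below are given with and without them. Nuclei of different mice shared 4218 barcode sequences, which involved 317 of the 1229 macrophage nuclei and 8739 nuclei in all. Mouse and barcode together identify a nucleus.

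The label was checked against Csf1r, Adgre1 and Mrc1. Csf1r was the clearest of the 3, with 197 ± 57.2 CPM (SD, n = 21 mice; lowest 71.7, median 209, highest 303), 3.00 times the highest lymphoid or non-immune cluster, the adipocyte progenitor cluster APC2 at 65.5 CPM. It was higher in macrophages in 18 of the 19 mice with libraries of both clusters, and dendritic cells stood at 77.2 CPM. Adgre1, which encodes the F4/80 antigen, gave 35 ± 31.8 CPM (lowest 0, median 34.4, highest 113). B cells gave 19 CPM, lower in 14 of 21 mice, and dendritic cells gave 57.1 CPM, above the macrophages. Mrc1, the mannose receptor, gave 113 ± 44.4 CPM (lowest 34.4, median 106, highest 181), 1.36 times the B cell level of 83.0 CPM and above it in 16 of 21 mice. Csf1r thus carried the label, and neither Adgre1 nor Mrc1 separated macrophages from B cells in every mouse.

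Detection in single nuclei was sparse. A count in Csf1r was found in 268 of 1229 macrophage nuclei, 21.8% (95% exact Clopper-Pearson interval 19.5 to 24.2), against 1.67% of B cell nuclei, which should lack it, at median depths of 1128 and 974 counts. For Adgre1 the shares were 5.04% and 2.21%, and for Mrc1 14.3% and 8.93%. With every nucleus thinned to 500 counts, which left out 208 macrophage and 1608 B cell nuclei, Csf1r was counted in 9.50% of macrophage and 0.676% of B cell nuclei. The thinned shares were 1.76% and 0.840% for Adgre1 and 4.51% and 3.41% for Mrc1. None of the 3 markers had a count in 66.9% of macrophage nuclei, so the label belongs to the cluster rather than to each nucleus. These intervals cover counting error only.

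Leading genes were defined as those with at least 20 CPM in macrophages and at least 2 times the mean of every lymphoid and non-immune cluster. They numbered 139 of 17173 genes (0.809%). The authors' clustering used accessibility in these same nuclei, at the more variable peaks, so the differences between clusters are a description and carry no test. Against a demand of 4 times, 54 genes were left (0.314%), and with dendritic cells among the clusters to be exceeded, 61 (0.355%). From peaks within 2000 bases of the gene start alone, 145 of 14732 genes were leading (0.984%), 68 of them among the 139. Without day1CL replicate 3 and day3CL replicate 2 the number was 132, of which 124 were among the 139.

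The 13 genes below were higher in macrophages than in the next cluster in every mouse with libraries of both. Among these 13, Cd33 and Clec4a2 had the largest ratios. Cd33 (chr7:43524216-43544428, minus strand, mm10), a sialic acid binding lectin of myeloid cells, gave 98.0 ± 41.7 CPM, 23.1 times the 4.25 CPM of vascular endothelial cells (VECs), with 11.3 CPM in dendritic cells. Clec4a2 (chr6:123106428-123143999, plus strand), an inhibitory C-type lectin receptor, gave 58.4 ± 35.2 CPM, 19.8 times the 2.95 CPM of the progenitor cluster APC1, with 13 CPM in dendritic cells. Both receptor genes were therefore low in dendritic cells as well. Havcr2 (chr11:46454935-46481255, plus strand), which encodes the checkpoint receptor TIM-3, gave 124 ± 55.4 CPM, 5.09 times T cells and beside 84.1 CPM in dendritic cells. Cd300a, an inhibitory receptor for membrane phospholipids, gave 81.2 ± 34.5 CPM, 4.97 times VECs.

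Alox5ap (chr5:149264767-149288153, plus strand), the activating protein of leukotriene synthesis, gave 153 ± 51.4 CPM, 4.90 times CD8 T cells, with 120 CPM in dendritic cells. Trpm2 (chr10:77907722-77970563, minus strand), a calcium-permeable channel opened by oxidative stress, gave 134 ± 45.4 CPM, 3.42 times white adipocytes, with 44.3 CPM in dendritic cells. Htr7, a serotonin receptor, gave 80.0 ± 52.7 CPM, 5.61 times B cells. Dpp10, which encodes a partner of potassium channels, gave 129 ± 46.6 CPM, 5.46 times VECs, and was not particular to macrophages among myeloid cells, as dendritic cells gave 153 CPM. The remaining 5, at 2.32 to 5.12 times the next cluster, were Ptrhd1, the fucosidase gene Fuca2, the telomerase-associated Tep1, the DNase gene Dnase1l3 and the metallopeptidase gene Amz1. Dnase1l3 was also higher in dendritic cells, at 176 CPM against 147 CPM.

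**Figure D1:**
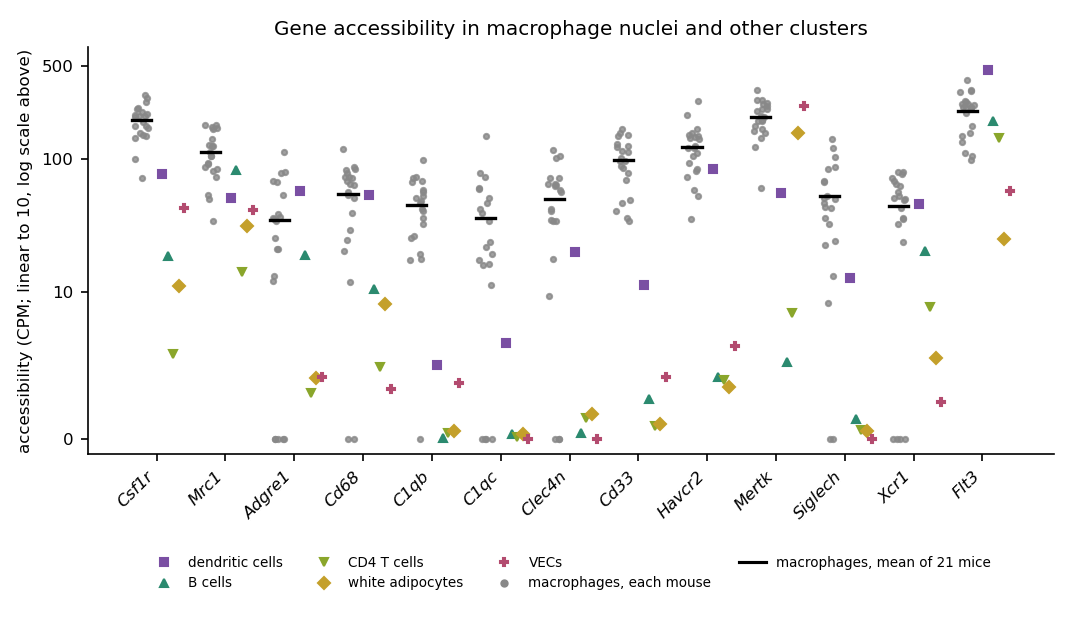
Accessibility of 13 genes in CPM (linear to 10, logarithmic above) in the macrophage library of each mouse (grey points; bar, mean of 21 mice) and as the mean of dendritic cells, B cells, CD4 T cells, white adipocytes and VECs. Cd33 stands clear of these clusters (98.0 CPM against 4.25 in VECs), Adgre1 and Flt3 are higher in dendritic cells (57.1 and 473 CPM), and Mertk is higher in VECs (253 CPM).

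Genes that identify macrophages held more leading genes than any other group described. Of 16 genes of macrophage identity, 7 were leading, against 0.809% of all genes. These were the lysosomal glycoprotein gene Cd68 (54.9 CPM), the high affinity IgG receptor gene Fcgr1 (29.5 CPM), the complement genes C1qb (45.3 CPM) and C1qc (36.2 CPM), the scavenger receptor gene Msr1 (84.3 CPM), the fungal lectin gene Clec4n (50.1 CPM) and Cd300a. Others of the list were open elsewhere. Mertk, a receptor for apoptotic cells, gave 208 CPM in macrophages and 253 CPM in VECs, and the fractalkine receptor gene Cx3cr1 gave 441 CPM against 542 CPM in T cells. Summed over the list, macrophages gave 1521 CPM, dendritic cells 941 CPM and B cells 703 CPM.

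None of 16 genes of lineage factors was leading. Spi1 gave 329 CPM in macrophages, 190 CPM in B cells and 332 CPM in dendritic cells, and Mef2c gave 351 CPM against 746 CPM in B cells. Of 12 genes of resident or perivascular macrophages, Folr2 (31.6 CPM), a folate receptor, and Stab1 (33.8 CPM), a scavenger receptor, were leading, while the hyaluronan receptor gene Lyve1 gave 2.37 CPM and the haemoglobin scavenger receptor gene Cd163 gave 24.2 CPM. Of 12 genes of phagocytic receptors 1 was leading, Cd300lf at 37.0 CPM, although all 12 were higher than in dendritic cells.

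None of 16 lipid-associated genes was leading, and they summed to 1005 CPM in macrophages against 1463 CPM in white and 1565 CPM in beige adipocytes. Cd36, which encodes the fatty acid transporter, gave 158 ± 59.2 CPM against 552 CPM in beige adipocytes, the lipoprotein lipase gene Lpl gave 40.9 CPM against 386 CPM in white adipocytes, and Trem2, a lipid-sensing receptor, gave 13.9 CPM. None of 13 lysosome and sterol genes was leading either, but they summed to 1952 CPM in macrophages against 1568 and 1633 CPM in white and beige adipocytes. Psap, which encodes the saposin precursor, gave 294 CPM against 163 CPM in B cells, higher in 20 of 21 mice, and the cholesterol exporter gene Abca1 gave 253 CPM against 597 CPM in white adipocytes.

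Of 14 genes of classical activation 1 was leading (7.14%, against 0.809% of all genes), the inflammasome sensor gene Nlrp3 at 58.7 CPM, and the costimulatory gene Cd86 gave 154 CPM against 80.0 CPM in B cells, higher in all 21 mice. Nos2 and Il1b gave 8.38 and 5.95 CPM. The classical list summed to 599 CPM in macrophages, 798 CPM in dendritic cells and 387 CPM in B cells. Of 11 genes of alternative activation 2 were leading (18.2%), the lectin genes Mgl2 (31.4 CPM) and Clec10a (55.2 CPM), while Chil3 was at 0 in every library. The alternative list summed to 812 CPM in macrophages, below 879 CPM in dendritic cells and 880 CPM in B cells. Of 14 chemokine genes 1 was leading, Ccl12 at 27.8 CPM. None of 7 monocyte genes was, with 55.2 CPM for the chemokine receptor gene Ccr2.

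Genes of catecholamine handling were low or open elsewhere, and none of 10 was leading. Maoa, which encodes a catecholamine-degrading enzyme, gave 31.7 CPM. Slc6a2, the noradrenaline transporter gene, gave 7.18 CPM, Th, the tyrosine hydroxylase gene of catecholamine synthesis, 5.86 CPM, and Adrb3, the receptor of CL, 12.4 CPM. None of 12 genes of secreted factors was leading, with 179 CPM for the cytokine gene Tgfb1 and 90.3 CPM for Slit3, which gave 742 CPM in APC1.

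Markers of other cell types were measured in the same libraries. The 7 MHC class II genes summed to 1300 CPM, between 1053 CPM in dendritic cells and 2493 CPM in B cells, with none leading and all 7 above dendritic cells, and Cd74 gave 336 CPM. The 9 dendritic cell genes summed to 886 CPM, against 1321 CPM in dendritic cells, and Flt3 gave 230 CPM against 473 CPM. 2 of the 9 were leading over the lymphoid and non-immune clusters, Siglech, a marker of plasmacytoid dendritic cells, at 52.3 CPM (12.7 in dendritic cells), and Xcr1, a marker of cross-presenting dendritic cells, at 44.5 CPM (45.8 in dendritic cells). The dendritic genes Ccr7 and Batf3 stayed lower than in dendritic cells, at 40.7 against 163 CPM and 29.3 against 98.7 CPM. The macrophage cluster therefore held open chromatin at genes of dendritic cells, and the part of these in the results below was not tested.

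Genes of the other clustered cell types were lower in macrophages than in their own clusters. The 8 B cell genes summed to 545 CPM against 3150 CPM in B cells, the 10 T cell genes to 398 CPM against 1978 CPM in T cells, and the 8 adipocyte genes to 614 CPM against 2633 CPM in white adipocytes. Cd3e gave 7.87 CPM, and the B cell gene Ebf1 gave 199 CPM against 1122 CPM. The 6 progenitor genes summed to 107 CPM, the 5 endothelial genes to 485 CPM, of which Pecam1 gave 329 CPM, and the 5 muscle genes to 43.0 CPM. The endothelial genes Tie1 and Emcn were at 0 and 0.22 CPM. The 5 neutrophil genes with peaks summed to 74.0 CPM, with Csf3r leading at 25.8 CPM, and the mast cell genes Kit and Cpa3 gave 70.8 and 3.98 CPM.

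Leading peaks, with at least 5 CPM and 2 times every lymphoid and non-immune cluster, numbered 7508 of 189598 (3.96%), with 3825 (2.02%) at 4 times and 3940 (2.08%) with dendritic cells included. They lay away from gene starts, with 4.74% within 2000 bases of one against 10.1% of all peaks, and 57.9% in a gene or the 2000 bases upstream against 61.0%. Csf1r held 12 peaks, of which 8 were leading, Adgre1 6 with 2 leading and Mrc1 12 with 2 leading. The genes nearest to the most leading peaks were Gm826 (14), the transcription factor genes Id2 (13) and Zeb2 (12), Tns3 (12), and Irf8, Mki67, Nek6, Nrp1 and the DNA demethylase gene Tet2 with 11 each.

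Some of the leading peaks of largest ratio, among those higher in every mouse compared, show what these regions look like. The peak chr11:93821502-93822061 (mm10), intergenic and 63985 bases past the start of Utp18, gave 36.2 ± 22.0 CPM, 26.5 times APC1 at 1.37 CPM, from 71 counts over the 21 mice. The peak chr11:71251318-71251946, intergenic and at -20899 bases from the start of the inflammasome gene Nlrp1b, gave 29.2 ± 15.0 CPM, 17.2 times VECs at 1.69 CPM, from 60 counts. The peak chr6:124358812-124359439, intergenic and 54469 bases past the start of Cd163, gave 37.6 ± 16.5 CPM, 15.1 times CD4 T cells at 2.49 CPM, from 71 counts. The peak of the third largest ratio among these, near Dppa3 (chr6:122657654-122658187, intergenic), gave 37.3 CPM, 16.0 times CD4 T cells, with 30.4 CPM in dendritic cells. Counts this low leave each ratio imprecise. The others of the 10 named included an intron of Dpp10 (chr1:123934000-123934723, 13.8 times), an intron of Sbf2 (chr7:110313271-110313896, 8.73 times) and an intergenic peak near Tifab (chr13:56173018-56173523, 10.6 times, 43.9 CPM). Most of these peaks were also open in dendritic cells, at 8.92 CPM for the Utp18 peak, 16.6 CPM for Nlrp1b, 28.7 CPM for Cd163, 21.2 CPM for the Dpp10 intron and 36.9 CPM for the Sbf2 intron, with 3.81 CPM at the Tifab peak. The central 300 bases of the Utp18, Nlrp1b and Cd163 peaks are shown from the reference genome (mm10, plus strand). They were picked because they differ in the string GAGGAAGT, a form of the PU.1 site, and the Dppa3 peak, which lacks it, is not shown. Capitals mark it, or its reverse complement.
Utp18 peak, chr11:93821632-93821931: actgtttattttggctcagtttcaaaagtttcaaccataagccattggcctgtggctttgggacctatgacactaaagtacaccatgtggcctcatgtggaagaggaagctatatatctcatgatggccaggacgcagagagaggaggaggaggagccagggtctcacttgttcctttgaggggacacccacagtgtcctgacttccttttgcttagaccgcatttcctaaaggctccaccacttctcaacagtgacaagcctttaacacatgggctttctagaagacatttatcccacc
Nlrp1b peak, chr11:71251483-71251782: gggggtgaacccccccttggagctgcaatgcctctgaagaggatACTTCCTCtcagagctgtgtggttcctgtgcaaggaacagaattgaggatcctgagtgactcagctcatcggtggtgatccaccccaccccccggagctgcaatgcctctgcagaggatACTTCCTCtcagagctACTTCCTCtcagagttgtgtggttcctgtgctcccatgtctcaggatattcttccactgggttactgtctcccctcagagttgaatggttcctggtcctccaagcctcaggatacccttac
Cd163 peak, chr6:124358976-124359275: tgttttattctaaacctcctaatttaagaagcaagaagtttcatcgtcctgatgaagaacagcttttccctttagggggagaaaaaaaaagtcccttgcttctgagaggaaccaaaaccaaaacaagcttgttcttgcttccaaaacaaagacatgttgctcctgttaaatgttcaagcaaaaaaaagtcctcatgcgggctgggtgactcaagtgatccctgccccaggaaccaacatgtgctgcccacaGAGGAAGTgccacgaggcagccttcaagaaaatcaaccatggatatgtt

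The Nlrp1b window held 3 copies, all on the minus strand, the Cd163 window held 1, and the Utp18 window held none. Of the 10 named windows, 2 held the string. Over all leading peaks, 16.3% of the 300-base windows held GAGGAAGT on either strand, against 10.9% of 5659 B cell-leading windows, 1.57% of 11395 white adipocyte-leading windows and 4.86% of all deposited peaks. The related ETS string CCGGAAGT, which shares GGAAGT with it, was in 0.546% of macrophage windows and 0.805% of all. The sets also differ in distance from gene starts, as given above, and its part in these shares was not tested. The GC content was alike, at 47.2% in macrophage windows and 48.5% in all.

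The other strings are given in the same order of windows. AP-1 (TGANTCA) was in 14.5% of macrophage, 8.71% of B cell and 12.3% of all windows. The MAF string (TGCTGA) was in 28.8%, 23.2% and 24.5%, and RUNX (TGTGGT) in 31.0%, 31.7% and 23.9%. The IRF string was in 6.77%, 6.47% and 5.21%, and the M-box (TCANGTGA) of the MiT factors in 4.94%, 4.88% and 4.02%. C/EBP (TTGCNNAA) was in 16.4% of macrophage windows, below the 31.8% of white adipocyte windows and the 18.5% of all. The EBF string was in 0.346% against 2.19% in B cell windows, and the NF-kB string in 0.812% against 1.13% of all. A match to letters is not a bound site, and the sets were chosen by accessibility in these nuclei, so no test was made.

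**Figure D2:**
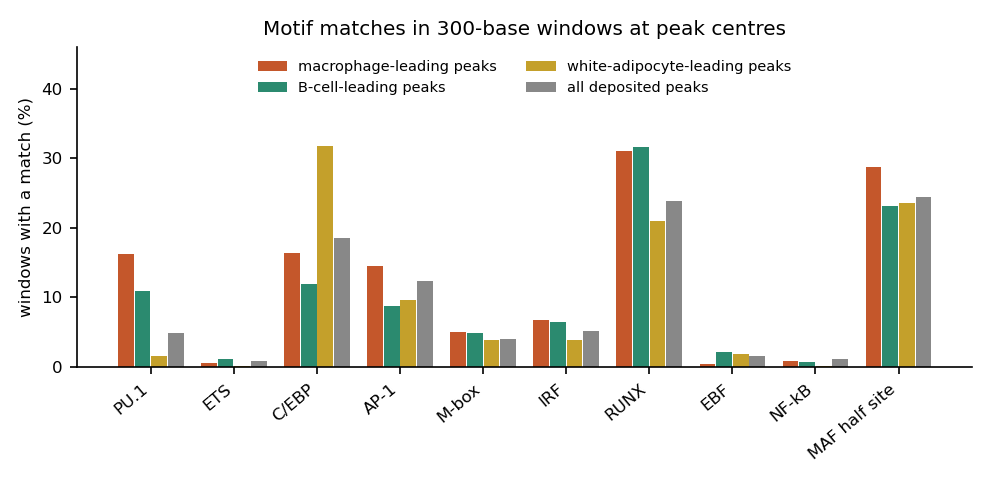
Share of 300-base peak windows that hold each string on either strand, in percent, for macrophage-leading, B cell-leading, white adipocyte-leading and all deposited peaks. The PU.1 string is in 16.3% of macrophage windows and 4.86% of all, while C/EBP is highest in white adipocyte windows at 31.8%.

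Macrophage nuclei differed among themselves. Clustering of the 1229 nuclei by their own peaks, after removal of the component that followed depth, was set to 4 subsets, and the subsets are numbered and given no cell type name. Another random start gave the same subsets (adjusted Rand index 1), whereas 3, 5 or 6 subsets gave an index of 0.659, 0.831 and 0.649 against them. Their leading genes defined them and are no test.

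Subset 1 (343 nuclei) was led by the membrane protein gene Emp1 (5.66 times the other subsets), the anaphylatoxin receptor gene C3ar1 (4.14 times) and the endocytic adaptor gene Dab2 (2.82 times). Subset 3 (285 nuclei) was led by the glutamate transporter gene Slc1a3 (10.4 times), Spic (6.63 times), a factor of iron-recycling macrophages, and Stab2 (4.66 times), a scavenger receptor gene. These 2 subsets carried the macrophage genes, with Csf1r at 309 and 344 CPM against 118 CPM in subset 2 and 61.8 CPM in subset 4. Mertk gave 290 and 449 CPM in subsets 1 and 3 and 20.8 and 104 CPM in subsets 2 and 4. Subset 1 had the higher lipid-associated sum, 1496 CPM against 1080 CPM in subset 3. Its Cd36 (329 against 107 CPM, from 145 and 46 counts) and Trem2 (47.7 against 16.3 CPM, from 21 and 7 counts) were also higher. Levels of subsets pool nuclei over mice, and many nuclei of subset 1 came from 1 mouse, as given below. Subset 3 had the higher level of C1qb, 95.4 against 54.5 CPM.

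Subset 2 (317 nuclei) was led by Homer2 (5.78 times), the checkpoint receptor gene Tigit, the stem cell factor receptor gene Kit and Wdfy4 (2.98 times), which serves cross-presentation. Its dendritic cell genes summed to 1324 CPM against 520 and 477 CPM in subsets 1 and 3, and its MHC class II genes to 1928 CPM, with Flt3 at 430 CPM and H2-Aa at 218 CPM. Subset 4 (284 nuclei) was led by the endocytic gene Pacsin1 (10.1 times) and by Dntt (4.36 times), the terminal transferase gene of lymphoid precursors. It had 1159 CPM over the dendritic genes, 907 CPM over the B cell genes and 651 CPM over the T cell genes, and 101 CPM for Siglech. The macrophage identity list summed to 2104, 1083, 2123 and 949 CPM in subsets 1 to 4, so subsets 2 and 4 held the lower level of macrophage genes and the higher level of dendritic genes.

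Subset 1 was unevenly spread over mice. It held 87.5% of macrophage nuclei in day1CL replicate 3, 80.8% in day3CL replicate 2 and 63.6% in day3C replicate 1, the 3 mice of fewest lymphocytes, and 0 to 28.8% (13.7 ± 8.38%, median 12.3%) in the other 18. Of its 343 nuclei, 147 came from day1CL replicate 3. Without that mouse its identity sum was 2164 CPM, its lipid-associated sum 1294 CPM and its MHC class II sum 1262 CPM. The mean shares of subsets 2, 3 and 4 in the 18 mice were 28.9, 28.3 and 29.1%. Among these 18 mice, the share of subset 1 was lower where lymphocytes were more frequent (Pearson's r = -0.568, permutation p = 0.0121, adjusted over the 4 subsets 0.0485; Spearman's rho = -0.581, permutation p = 0.0130, adjusted 0.0262). When the 2 mice with the most extreme lymphocyte shares were dropped, r was -0.407 (permutation p = 0.113, adjusted 0.151). It kept its sign but no longer passed the threshold, and rho was not computed without these 2 mice. For subset 3, r was 0.426 (adjusted permutation p = 0.137) and rho 0.575 (adjusted permutation p = 0.0262). For subsets 2 and 4, r was 0.191 and 0.0187 (adjusted permutation p = 0.591 and 0.944). Without the same 2 mice r was 0.536 for subset 3, 0.366 for subset 2 and -0.484 for subset 4 (adjusted permutation p = 0.113, 0.161 and 0.113), so Pearson's r passed the adjusted threshold for none of the 4 subsets. The permutations moved mice freely across the 7 groups, and the part of group in r and rho was not tested. The 4 shares of a mouse make up all of its macrophage nuclei, so the results for the subsets are not independent. The split from the 3 mice was made after the lymphocyte shares were seen, and the part of dissection or cell recovery was not tested.

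**Figure D3:**
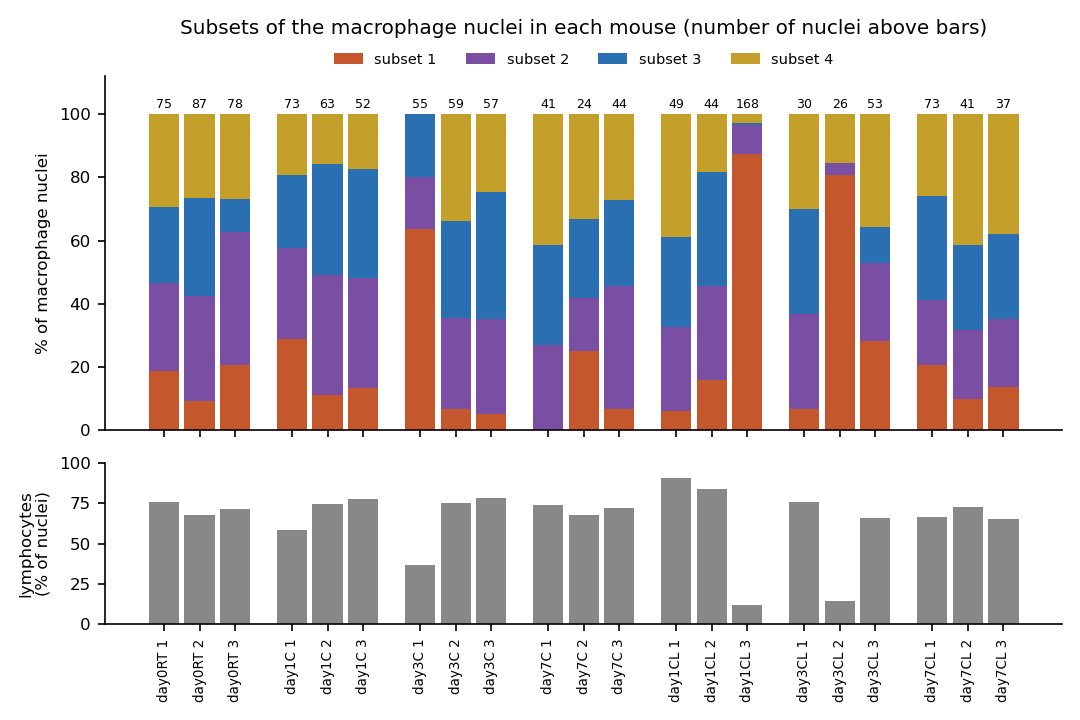
Share of the 4 macrophage subsets in each mouse (stacked bars, percent of its macrophage nuclei, with their number above) and, below, lymphocytes as percent of all nuclei. Subset 1 holds 63.6 to 87.5% in the 3 mice of fewest lymphocytes and at most 28.8% in the other 18.

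In 16 of the 18 treated mice, macrophages made up a smaller share of all nuclei than in any day0RT mouse. In day0RT it was 4.17, 6.08 and 4.77% in the 3 mice (5.00 ± 0.975%, SD). After cold it was 5.23, 4.14 and 3.02% at day 1, 3.54, 3.60 and 3.15% at day 3 and 2.38, 1.95 and 2.27% at day 7 (2.2 ± 0.224%). In 8 of the 9 mice in the cold the share lay below the lowest day0RT mouse, and 1 day1C mouse overlapped day0RT. After CL it was 3.54, 3.28 and 15.1% at day 1, 2.36, 2.09 and 3.11% at day 3 and 3.61, 2.36 and 2.77% at day 7. Of the 9 CL mice only day1CL replicate 3, at 15.1%, lay above the lowest day0RT mouse.

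The 4 subsets differed in this share, and they were taken in pairs after their values were seen, so no test was made. Subsets 2 and 4 together were 3.11 ± 0.643% of all nuclei in day0RT, 1.66 ± 0.621% after cold and 1.58 ± 0.513% after CL (SD, n = 3, 9 and 9 mice), and they lay below the lowest day0RT mouse in 17 of the 18 treated mice. Subsets 1 and 3 together were 1.9 ± 0.499% in day0RT, 1.59 ± 0.799% after cold and 2.67 ± 4.01% after CL, and lay below the lowest day0RT mouse in 11 of the 18. The mean after cold was thus lower by more in subsets 2 and 4 (-1.45 percentage points) than in subsets 1 and 3 (-0.305 points). Without the 3 mice of fewest lymphocytes these differences were -1.31 and -0.477 points for cold and -1.39 and -0.606 points for CL.

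The mean share after cold differed from day 0 by -1.75 percentage points (exact permutation test over mice, two-sided, p = 0.0364, adjusted over 3 comparisons 0.109), which did not hold after adjustment. The adjusted p was 0.0364 without day1C replicate 1, the mouse that overlapped day0RT, and also without day1CL replicate 3, which changes only the other comparisons. Without day3C replicate 1, the mouse of fewest lymphocytes in the cold, the difference was -1.79 points (exact permutation p = 0.0485, adjusted 0.145). Without day0RT replicate 1, 2 or 3 the exact permutation p was 0.0727, 0.145 and 0.0727. Among nuclei other than lymphocytes the share was 11.2% after cold and 17.6% at day 0 (exact permutation p = 0.00909, adjusted 0.0273). On that base the differences were -3.70 points for CL and -5.05 points for all treated mice (exact permutation p = 0.527 and 0.286). The day1CL mice then stood at 38.3, 20.7 and 17.2%, against 16.6 to 18.9% in day0RT, so none lay below day0RT. In day1CL replicates 1 and 2, lymphocytes were 90.8 and 84.1% of all nuclei. Among immune nuclei the difference for cold was -1.29 points (exact permutation p = 0.364). For CL the difference over all nuclei was -0.755 points (exact permutation p = 0.509), and for all treated mice -1.25 points (exact permutation p = 0.292). Leaving out day1CL replicate 3 alone brought both past the threshold, at -2.11 and -1.92 points (exact permutation p = 0.0121 and 0.00702, adjusted 0.0182 for both). Without day3CL replicate 2 as well, a choice made after the data were seen, they were -2.0 points (exact permutation p = 0.0167, adjusted 0.025) and -1.86 points (exact permutation p = 0.00826, adjusted 0.0248). Among immune nuclei with every mouse kept, both differences were positive, 4.46 points for CL and 1.59 for all treated mice (exact permutation p = 0.927 and 0.657). In day1CL replicate 3 macrophages were 54.5% of immune nuclei, against 2.72 to 12.9% in the other mice, and without it the differences were -1.05 points for CL and -1.17 for all treated mice (exact permutation p = 0.570 and 0.433). In a count model of the 6 groups (edgeR, quasi-likelihood) none was called, with 0 of 6 at an unadjusted p under 0.05, and the lowest p was that of day7C (log2 fold change -1.14 ± 0.599 SE, adjusted p = 0.325). Without day1CL replicate 3 it was called, with an adjusted p of 0.0301.

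**Figure D4:**
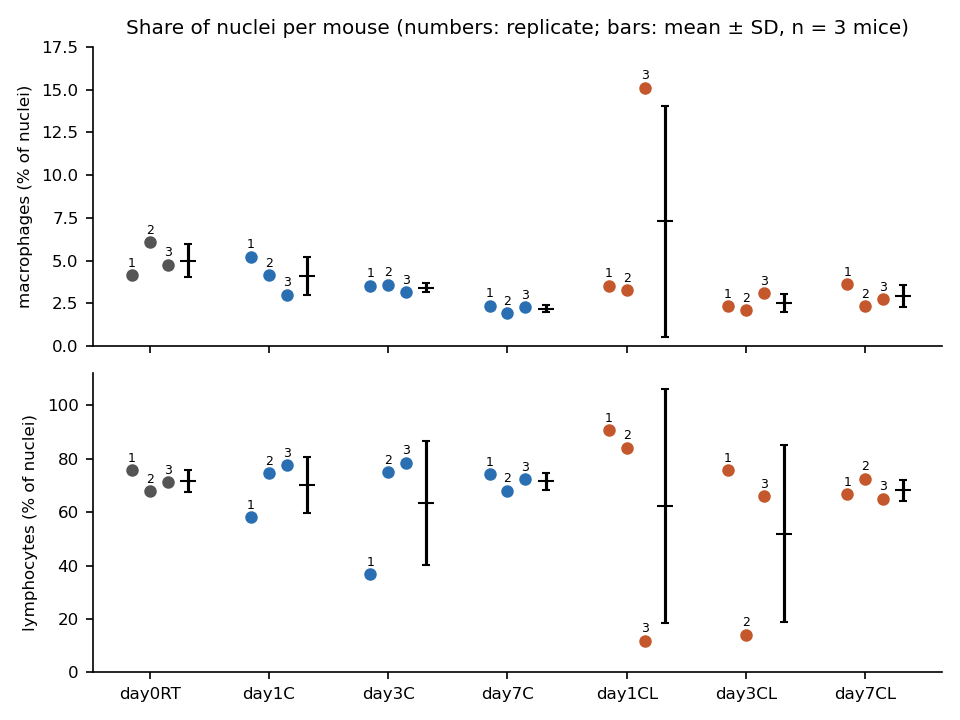
Macrophages as percent of all nuclei in each mouse (numbers are replicates, bars the mean ± SD, n = 3 mice) and, below, lymphocytes as percent of all nuclei. The day7C mice lie between 1.95 and 2.38%, below the 4.17 to 6.08% of day0RT, and the day1CL mouse at 15.1% has 11.9% lymphocytes.

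Dendritic cells varied in number as well. There were 1.01 ± 0.666 macrophage nuclei per dendritic cell in day0RT, 2.48 ± 0.661 in day1C, 7.28 ± 5.76 in day3C and 1.25 ± 0.134 in day7C (SD, n = 3 mice). After CL there were 8.13 ± 11.2 in day1CL, 3.31 and 4.29 in the 2 day3CL mice with dendritic cells, and 2.86 ± 1.76 in day7CL. The highest ratios, 13.8 and 21, were in day3C replicate 1 and day1CL replicate 3, and the other mice of these groups stood at 5.36 and 2.71 in day3C and 2.23 and 1.16 in day1CL. Dendritic cells made up 6.11, 10.8 and 2.69% of all nuclei in the day0RT mice and 0.72% in day1CL replicate 3, and day3CL replicate 2 had none among 1242 nuclei.

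Accessibility of genes in macrophages was compared over the groups for the 3595 genes that passed the filter on low counts. For all treated mice against day0RT, edgeR's quasi-likelihood test called 0 genes at an adjusted p under 0.05 (0%), with 177 (4.92%) at an unadjusted p under 0.05, and DESeq2 called 0, with 43 unadjusted. For cold it called 0 (0%; 146 unadjusted, 4.06%; DESeq2 0, 37 unadjusted) and for CL 0 (0%; 197 unadjusted, 5.48%; DESeq2 0, 49 unadjusted). CL against cold gave 0 (181 unadjusted, 5.03%; DESeq2 0, 59 unadjusted), and the test over all 7 groups gave 0 (192 unadjusted, 5.34%; DESeq2 0, 20 unadjusted). Of the single groups, day1C, day3C, day7C, day3CL and day7CL gave 0 called genes each by both tools, with 136 (3.78%), 162 (4.51%), 167 (4.65%), 134 (3.73%) and 172 (4.78%) at an unadjusted edgeR p under 0.05 and 38, 36, 34, 52 and 42 by DESeq2. The median log2 fold change of all genes was -0.00808 for treated mice.

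The genes of smallest p did not pass the threshold. For treated mice these were Men1, a chromatin regulator gene, at -0.74 ± 0.205 (log2 fold change ± SE), lower in 17 of 18 mice than the day0RT mean, Ano10 at -0.73 and Dpp10 at 0.83, each with an edgeR adjusted p of 0.819. For cold, Stat4, a signal transducer of interleukin 12, stood at 1.11 (adjusted p = 0.702), above the day0RT mean in 9 of 9 mice, followed by Ano10 at -0.80 and Slc25a12 at -0.74. For CL, Mid1 stood at 0.91 and Sfi1, a centrosome gene, at 0.52, both with an edgeR adjusted p of 0.286, and Mtrex at -1.0. For CL against cold, Stxbp6 stood at 0.99 (edgeR adjusted p = 0.0699), the sorting receptor gene Sorl1 at 0.76 (edgeR adjusted p = 0.0831) and Lat2 at 0.79.

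After 1 day of CL, 3 genes were called (0.0834% of 3595; 305 or 8.48% at an unadjusted p under 0.05; DESeq2 called 0, with 79 unadjusted). Of the rule for named genes, which asks for a mean of 20 counts in a library and for 1 direction across mice, only Lrp1 met all parts, while Slx4ip and Kazn are named because the count is small and were chosen after their values were seen. Lrp1, the receptor for lipoproteins and apoptotic cells, gave 218, 252 and 107 CPM in the day0RT mice and 202, 329 and 579 CPM in the day1CL mice. The groups overlapped, and replicate 3 was the highest. The log2 fold change was 1.12 ± 0.249 (edgeR adjusted p = 0.0216). Slx4ip, a telomere maintenance gene, gave 94.7, 10.5 and 77.6 CPM in day0RT and 60.5, 228 and 255 CPM in day1CL, also with overlap (1.43 ± 0.302, edgeR adjusted p = 0.0155). Kazn, a gene of cell junction proteins, gave 72.8, 126 and 126 CPM in day0RT and 20.2, 50.7 and 4.63 CPM in day1CL. All 3 day1CL mice were lower (-1.72 ± 0.405, edgeR adjusted p = 0.0430). The mean over libraries was 21.6 counts for Lrp1, 8.86 for Slx4ip and 6.38 for Kazn, so the CPM of single mice rest on few counts for the last 2. DESeq2 gave 1.09 ± 0.393 for Lrp1, 1.63 ± 0.591 for Slx4ip and -2.78 ± 0.884 for Kazn, with larger SE.

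None of the 3 calls held without day1CL replicate 3. Lrp1 then stood at 0.41 (edgeR adjusted p = 0.852), Slx4ip at 0.84 (0.741) and Kazn at -1.08 (0.712). Without day0RT replicate 3 none was called either, with Lrp1 at 0.86 (edgeR adjusted p = 0.285), Slx4ip at 1.49 (0.0897) and Kazn at -1.60 (0.215). With the share of subset 1 as a covariate they stood at 0.73 (edgeR adjusted p = 0.761), 0.89 (0.761) and -1.41 (0.724). The genes also differed between the subsets. Lrp1 gave 520, 164, 263 and 115 CPM in subsets 1 to 4 (433, 169, 263 and 111 CPM without that mouse), Slx4ip 202, 106, 86.1 and 39.3 CPM (150, 104, 86.2 and 39.8), and Kazn 36.3, 67.1, 184 and 28.1 CPM (60.7, 70.1, 184 and 28.4). Subset 1 thus had the highest level of the 2 genes that were higher in day1CL, also without that mouse, and the share of subset 1 and the treatment cannot be told apart in it.

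**Figure D5:**
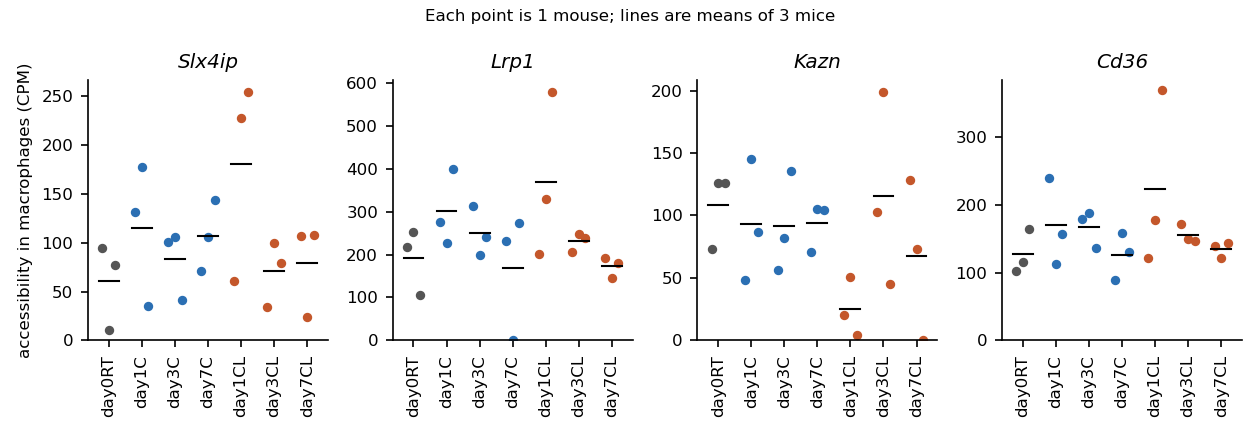
CPM of Slx4ip, Lrp1, Kazn and Cd36 in the macrophage library of each mouse by group (points, mice; lines, means of 3 mice). In day1CL, replicate 3 is the highest for Slx4ip, Lrp1 and Cd36 (255, 579 and 370 CPM) and the lowest for Kazn (4.63 CPM).

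No lipid-associated, MHC class II or dendritic gene that passed the filter on low counts was called after 1 day of CL with every mouse kept. With no filter, the lipoprotein lipase gene Lpl was called in day1CL (log2 fold change 1.62, edgeR adjusted p = 0.0296) and over all groups (edgeR adjusted p = 0.0113). Among all 3595 genes, 178 were higher and 127 lower at an unadjusted p under 0.05 in that group. Of 16 lipid-associated genes 6 were tested, 3 of them higher at an unadjusted p under 0.05 and none lower, with a median log2 fold change of 0.50 against 0.01 for all genes tested. Cd36, named after its values were seen, gave 102, 115 and 165 CPM in day0RT and 121, 177 and 370 CPM in day1CL (1.06 ± 0.263, edgeR adjusted p = 0.0588), and without replicate 3 it stood at 0.22. It was called without day1CL replicate 1 (1.27, edgeR adjusted p = 0.00205) or replicate 2 (1.18, edgeR adjusted p = 0.0184), and also without day3C replicate 1, day3C replicate 3 or day3CL replicate 2 (edgeR adjusted p = 0.0269, 0.0474 and 0.0458). Plin2, which coats lipid droplets, stood at 0.76 and Atp6v0d2, a subunit of the lysosomal proton pump, at 0.95. Of 7 MHC class II genes 6 were tested, with a median of -0.49 and 2 lower at an unadjusted p under 0.05, H2-Aa at -0.89 and Cd74 at -0.50. Of 9 dendritic genes 4 were tested, with a median of -0.48 and Flt3 at -0.78 and Zbtb46 at -0.70 as the 2 lower ones. Without day1CL replicate 3 the medians over the same genes were 0.11 for the lipid-associated, -0.43 for the MHC class II and -0.49 for the dendritic genes. None of the lipid-associated or dendritic genes and 1 MHC class II gene, a lower one, then had an unadjusted p under 0.05. Other lists also shifted in day1CL, with medians of -0.52 for monocyte genes (2 tested), 0.41 for label markers (2 tested) and 0.26 for identity genes (6 tested). Without replicate 3 these were -0.66, -0.01 and -0.08, over the genes tested in both fits.

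The lipid-associated genes summed to 910, 903 and 1077 CPM in the day0RT mice and 846, 1241 and 1648 CPM in the day1CL mice, the last in replicate 3, so that the groups overlapped. The MHC class II genes summed to 1413, 1260 and 1339 CPM in day0RT and 1008, 836 and 1018 CPM in day1CL, lower in all 3 mice with no overlap, replicate 3 included. The sum also lay below every day0RT mouse in day7C (1108 to 1190 CPM) and above every one in day1C (1416 to 1827 CPM), and it overlapped day0RT in day3C, day3CL and day7CL. The dendritic genes summed to 954, 997 and 1222 CPM in day0RT and 867, 557 and 671 CPM in day1CL, also with no overlap. Their sum lay below every day0RT mouse in day3C too (606 to 929 CPM). It overlapped day0RT in day1C, day3CL, day7C and day7CL, with 747 ± 310 CPM in day3CL and 1099 CPM in day7C.

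Over all treated mice no list held a called gene. The median log2 fold change was 0.16 for the 2 of 3 label markers tested, with Csf1r at 0.26 and Mrc1 at 0.07, 0.11 for the identity genes (6 tested), 0.04 for lineage factors (13 tested), -0.06 for lipid-associated genes (6 tested) and -0.07 for MHC class II genes (6 tested), against -0.01 for all genes. Of the lineage factors Cebpa was lower at an unadjusted p under 0.05, at -0.50, as was the monocyte gene Plac8, at -0.53, while the adipocyte marker Pparg, a nuclear receptor gene, was higher at 0.51 (edgeR adjusted p = 0.970 for Plac8 and 0.983 for Pparg). The dendritic genes (4 tested) had a median of -0.23, with Flt3 at -0.56 ± 0.187 (edgeR adjusted p = 0.901). The medians were -0.10 for resident (2 tested) and lysosome and sterol genes (8 tested), 0.06 for classical (3 tested) and -0.09 for alternative activation (4 tested), -0.30 for monocyte genes (2 tested), -0.24 for phagocytic receptors (3 tested), -0.17 for catecholamine handling (2 tested) and -0.08 for secreted factors (4 tested). Among other cell types' genes they were 0.18 for B cells (3 tested), where the marker sum was 474 CPM in day0RT and 810 ± 253 CPM in day3CL, -0.03 for adipocytes (3 tested) and -0.03 for endothelium (2 tested). No member of the chemokine, T cell, neutrophil, mast cell, progenitor or muscle lists passed the filter on low counts.

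At the level of peaks, 451 passed the filter. edgeR called 0 (0%) for treated mice, cold and CL, with 17 (3.77%), 25 (5.54%) and 18 (3.99%) at an unadjusted p under 0.05, and DESeq2 called 0 in each, with 7, 9 and 5 unadjusted. The peak of smallest p for treated mice was chr13:75706993-75708862, at 0.87 ± 0.251 (edgeR adjusted p = 0.227).

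Whether macrophages responded otherwise than other cell types was tested as an interaction of cell type with treatment. Against B cells, the most frequent cell type, edgeR called 0 of 10014 genes (0%; 502 unadjusted, 5.01%; DESeq2 0, 379 unadjusted), with the smallest p for Men1 (difference of log2 fold changes -0.97, adjusted p = 0.602). Against white adipocytes it called 0 of 11049 genes (0%; 696 unadjusted, 6.30%; DESeq2 0, 525 unadjusted), with the smallest p for Ppfibp2 (-0.89, edgeR adjusted p = 0.357).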

How the data were processed

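Nuclei of whole iWAT were tagged with barcoded transposomes and sequenced in 4 pooled lanes, and the mouse, group and cell type of each nucleus were taken from the deposited annotation, since the labels pool the treatments in each lane. The authors merged 2 runs, aligned with Bowtie2 to mm10, removed duplicates, called peaks with MACS2, removed doublets with Scrublet and clustered with Signac. The deposited counts were binary, with 1 where a nucleus had reads in a peak (189598 peaks, 32552 nuclei).

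Here counts were summed per mouse over macrophage nuclei. Genes were the 21951 protein-coding genes of GENCODE vM21, of which 17173 had a peak, and 3.38% of peaks counted for more than 1 gene. Groups were compared with edgeR 4.0.16 (quasi-likelihood, TMM, Benjamini-Hochberg adjustment over all genes tested) in 1 fit over the 7 groups. DESeq2 1.42.0 was an alternative (R 4.3.3). The filter of edgeR took 10 counts as a CPM at the median library size, so genes it kept could average fewer counts. The log2 fold changes of genes and peaks from edgeR were shrunk with a prior count of 2. Their SE was the absolute log2 fold change divided by the square root of F. Shares were compared by exact permutation tests over mice. Subsets came from latent semantic indexing and k-means over 34124 peaks (scikit-learn 1.9.0). Scripts were tested on simulated data. Sequences and strings were read from the GRCm38 reference genome with pysam 0.24.0.

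The members, lists and tests were chosen with earlier results of these data known. Named genes were list members, the leading genes and peaks of largest ratio that were higher in every mouse compared, and, for each comparison, called genes with at least 20 counts per library and 1 direction in all mice, or else the 3 of smallest p. Alternatives covered the tool, filter, scaling, nuclei kept, gene region, covariates, replicate number and each mouse left out. Some members of these lists are not reported here.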

Additional observations from a re-analysis of the deposited data

How the results depend on the processing

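No gene or peak was called for all treated mice or for cold under any alternative run, and none for the interactions with B cells or white adipocytes. With each mouse left out in turn, calls numbered 0 to 1 for CL, 0 to 2 for CL against cold, 0 to 18 over all groups and 0 to 29 over the 6 groups (3 with all mice). In the last, 29 were called without day1CL replicate 1, 9 without day3C replicate 1, 8 without day3CL replicate 2, 6 without day3C replicate 3, 5 without day1CL replicate 2, 1 without day0RT replicate 2, and 0 without day0RT replicate 3 or day1CL replicate 3. The 6 groups gave 6 calls with at least 30 nuclei per library, 1 with promoters only (Xdh), 1 with only the groups compared in the fit (Sfi1, day7CL) and 0 with DESeq2. The test over all groups gave 7 calls with no filter on low counts, 1 with at least 30 nuclei (Dab2), and 1 with promoters only (Xdh). In alternatives chosen after seeing the data, leaving out day1CL replicate 3 and day3CL replicate 2 gave 1 call over all groups (Sfi1) and 1 for CL against cold (Sorl1, 0.84, edgeR adjusted p = 0.0395), and the share of subset 1 as a covariate gave 1 for CL against cold (Sorl1) and 0 over the 6 groups. The cause of these shifts was not tested.

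The replicate number as a block gave 0 calls over the 6 groups (edgeR adjusted p 0.0787 for Slx4ip at 1.39 and Kazn at -1.68, and 0.0979 for Lrp1 at 1.03, log2 fold changes close to those without the block). Mice of 1 number did not deviate together (median correlation -0.00126 over 63 pairs, -0.140 to 0.0554, against 0.00158 over 126 other pairs). The paper reports that the experiment was run in independent batches, but no source used here ties a mouse's number to a batch. Left out 1 mouse at a time, the log2 fold change in day1CL ran from 0.84 to 1.74 for Slx4ip, 0.41 to 1.34 for Lrp1, -1.98 to -1.08 for Kazn and 0.22 to 1.27 for Cd36, and Cd36 was called with at least 30 nuclei (edgeR adjusted p = 0.0471).

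The difference in macrophage share ran from -1.92 to -0.717 points for treated mice, -2.17 to -1.22 for cold and -2.11 to -0.219 for CL with 1 mouse left out, and 0 to 1 of the 6 groups were called. Over immune nuclei the differences were 1.59, -1.29 and 4.46 points. Leaving out day1CL replicate 3 there as well, an alternative chosen after seeing the data, gave -1.17 and -1.05 points for treated mice and CL. Over all nuclei without the 2 mice of fewest lymphocytes, also chosen after seeing the data, the differences were -1.86 for treated mice and -2.0 for CL, and 1 group was called. Leading genes numbered 54 at 4 times and 61 with dendritic cells included, and leading peaks 3825 and 3940. Depth limits the tests within macrophages to 3595 genes and 451 peaks.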
